A study of Homo sapiens with 6 samples.

Results

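The HOXA cluster holds 11 HOXA protein-coding genes on chromosome 7, and the regions described here are all entries of the deposited lists of differentially methylated regions that overlap a window of 109001 bp around it. The window ends 909 bp above the last base of HOXA13 (27200091). All coordinates are hg38, and those without a chromosome name are on chromosome 7. There were 9 such regions among 4344 listed regions, namely 3 of 1483 in pair 1, 2 of 1433 in pair 2 and 4 of 1428 in pair 3. The samples were cells of HepG2, an established liver cancer line, infected with a lentivirus that overexpresses the de novo DNA methyltransferase DNMT3A (3 libraries) or with a control lentivirus (3 libraries, genotype WT). The assay was reduced representation bisulfite sequencing (RRBS), in which MspI cuts at CCGG and enriches CpG-rich fragments, and bisulfite converts unmethylated cytosines. Each deposited list compared an overexpressing library with the equally numbered control, and the 2 libraries are called a pair. The labels do not name separate cultures or clones, so the spread between libraries may be technical. No expression was measured, so the identity of the cells and the level of the DNMT3A protein or transcript were not checked here.

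HOX genes encode homeodomain transcription factors that give cells their position along the body axis. They lie in clusters in the order in which they are used from head to tail, with HOXA13 at the tail end of this cluster. Cells that do not use a HOX gene commonly hold it silent with Polycomb complexes, and CpG-rich stretches of HOX clusters are known to take up DNA methylation in tumours, with HOXA5 among the genes often named.

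A level below is the mean methylation of a region in 1 library, a fraction from 0 to 1 computed by the authors, and a difference is the overexpressing level minus the control level. A gain is a region listed as higher and a loss a region listed as lower in the overexpressing library. Mapped reads per library ranged from 25764323 to 29924507. The lists give no reads per region, so the depth behind each level is unknown and levels are printed without intervals. A position without an entry was not called, or was not covered by enough reads to be called, and these cannot be told apart.

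Called regions touched the start sites of HOXA3 and HOXA7, and the sequence of these promoter windows shows which CpG dinucleotides the values refer to. The windows below are from RefSeq (GRCh38.p14), run from 250 bases before to 50 bases after the start site, and are read 5′ to 3′ on the minus strand, on which both genes are annotated. Capitals mark the CpG dinucleotides that lie inside the called region, wholly or by 1 base.
HOXA3, chr7:27152534-27152833, pair 2: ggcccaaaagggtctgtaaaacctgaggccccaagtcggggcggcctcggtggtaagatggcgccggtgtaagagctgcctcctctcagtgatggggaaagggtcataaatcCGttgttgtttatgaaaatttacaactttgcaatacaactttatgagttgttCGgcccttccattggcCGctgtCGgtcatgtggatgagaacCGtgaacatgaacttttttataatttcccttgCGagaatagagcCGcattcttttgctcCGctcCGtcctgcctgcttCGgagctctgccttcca
HOXA7, chr7:27156626-27156925, pair 3: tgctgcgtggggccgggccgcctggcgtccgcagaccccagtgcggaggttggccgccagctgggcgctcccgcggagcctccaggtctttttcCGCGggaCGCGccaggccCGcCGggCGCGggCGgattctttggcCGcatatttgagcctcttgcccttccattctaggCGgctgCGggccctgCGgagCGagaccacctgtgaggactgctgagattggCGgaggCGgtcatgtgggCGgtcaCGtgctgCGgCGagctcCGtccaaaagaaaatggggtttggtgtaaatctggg
The HOXA3 window holds 15 CpG dinucleotides, of which 10 lie in the called region (bases 114 to 285 of the window), and the HOXA7 window holds 31, of which 21 lie in the called region (bases 95 to 265). The median over all 35116 RefSeq promoter windows was 14, and 51.1% of them held fewer CpG dinucleotides than the HOXA3 window and 79.3% fewer than the HOXA7 window. The MspI site CCGG, which reads the same on both strands, occurs 1 time in the HOXA3 window, outside the called region, and 2 times in the HOXA7 window, 1 of them inside it. It occurs in 63.1% of all windows and in 15 of the 21 windows of the HOXA cluster, which belong to 14 of the 19 genes annotated there. HOXA5 is not among these 14 genes, so its start site was not examined in this way. A listed region overlapped 1 of these 21 windows in pair 2, 1 in pair 3 and 0 in pair 1, and 0.290%, 0.299% and 0.296% of all windows in pairs 1, 2 and 3. The authors listed 10 sites for the HOXA3 region and 27 for the HOXA7 region. Since 27 is more than 21, sites of the 2 DNA strands were counted separately. The capital CpG dinucleotides hold 42 cytosines over both strands at HOXA7 and 20 at HOXA3. In each region the CpG at 1 edge lies only partly inside, so 1 of these cytosines lies outside it.

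Most listed regions lay between HOXA5 and the HOXA7 start site, and they went in different directions in different pairs. Pair 1 had 1 gain and 2 losses, pair 2 had 2 gains and no loss, and pair 3 had 3 gains and 1 loss, which makes 6 gains and 3 losses. Over the whole lists gains were 82.1%, 81.7% and 81.1% of pairs 1, 2 and 3, and losses 17.9%, 18.3% and 18.9%. The stretch from chromosome 7: 27142052 to 27156831, 14780 bp or 13.6% of the window, held 8 of the 9 regions, and the remaining one lay 35567 bp further towards HOXA13. The bounds of this stretch were set at the outermost of these 8 regions, so its share of the window measures no enrichment. Of the 8 regions, 3 overlap at 1 position in HOXA5. No region was listed in the first 50052 bp of the window, which include HOTAIRM1, HOXA2, HOXA-AS2 and HOXA4. Nor was any listed within 1 kb of HOXA6, HOXA9, HOXA10, the microRNA gene MIR196B, HOXA11 or HOXA13. In all, 3 of the 11 HOXA coding genes (HOXA3, HOXA5 and HOXA7) had one of these regions within 1 kb, and so did 1 of 6 long noncoding RNA genes, HOXA-AS3. Over the whole annotation, 8.88% of 19974 protein-coding and 3.2% of 18177 long noncoding RNA genes had a listed region within 1 kb in any pair. The window was chosen in view of earlier results, and overlapping genes share regions, so these counts were not tested against the background.

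**Figure D1:**
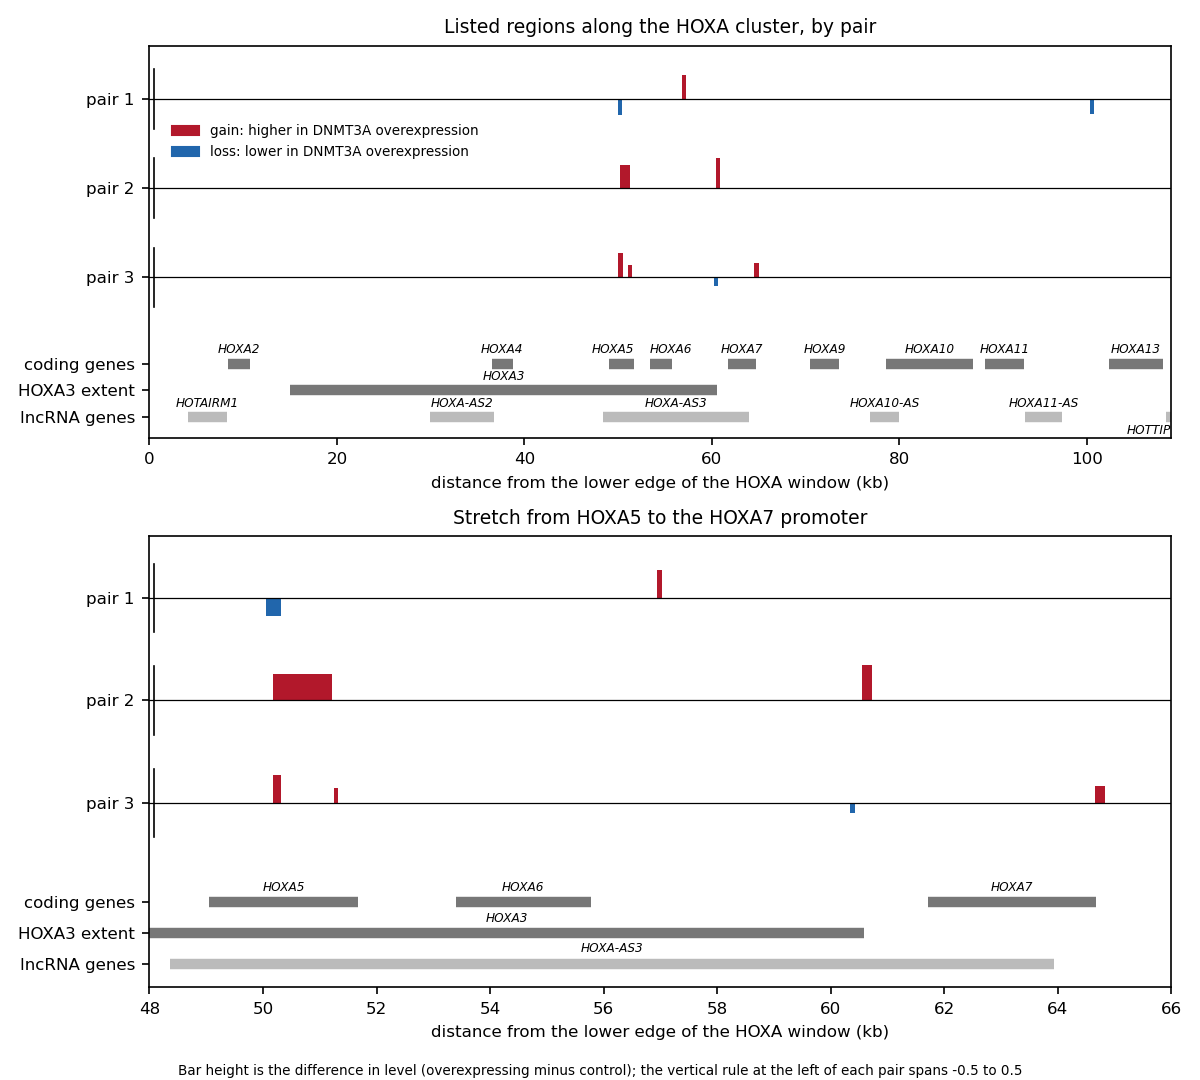
Positions of the 9 listed regions along the HOXA window (top) and in the stretch from HOXA5 to the HOXA7 promoter (bottom), with the distance from the lower edge of the window in kb on the horizontal axis and 1 line per pair. Bar height is the difference in level, upward red bars are gains, downward blue bars are losses, narrow regions are drawn wider than scale, and the extents of most annotated genes are drawn underneath. The 2 losses of pair 1 and the 1 loss of pair 3 lie at 50.2, 100.6 and 60.4 kb, and 8 of the 9 regions fall in the lower panel.

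The gene assignments overlap. HOXA3, a regulator of pharyngeal organs such as the thymus in mice, is annotated from 27107010 to 27152583 because of its distant start sites, and this extent contains HOXA4, HOXA5 and HOXA6. Of the 9 regions 7 overlap the extent of HOXA3, and 4 of these 7 also lie inside HOXA5. HOXA-AS3, annotated at 27140364-27155928, contains those same 7. Exons and introns were not analysed here.

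HOXA5 (27141052-27143681), a homeodomain factor of lung and thoracic development, was the one position of the cluster listed in all 3 pairs, and its direction differed between them. In pair 1 the region 27142052-27142312 (21 sites) stood at 0.304 in the overexpressing and 0.570 in the control library, a difference of -0.27. In pair 2 the region 27142179-27143212 (7 sites) stood at 0.453 in the overexpressing and 0.0650 in the control library, a difference of 0.39. In pair 3 the region 27142178-27142312 (11 sites) stood at 0.673 in the overexpressing and 0.269 in the control library, a difference of 0.40. Pair 1 thus held the lowest overexpressing level and the highest control level of this position, and the groups overlapped.

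Across the 6 libraries the HOXA5 region averaged 0.477 ± 0.185 in overexpressing and 0.301 ± 0.254 in control libraries (SD, n = 3 each). The mean difference of 0.176 ± 0.382 (SD, n = 3 pairs) was smaller than the spread of the controls. The change on the logit scale was 0.98 ± 0.70 (SE), with limma adjusted p = 0.206 over the 272 regions listed in all 3 pairs. Of those 272 regions 263 passed the threshold of 0.05 (96.7%), 261 of them higher (96.0%) and 2 lower (0.735%), so the HOXA5 region was among the 9 that did not. These regions were listed because each pair called them, so a high share is built into their choice. The exact two-sided permutation test of 3 against 3 libraries gave p = 0.4, where 0.1 is the smallest value it can give. It did not use the pairs, and neither did this limma fit. An exact two-sided sign-flip test over the 3 pairs gave p = 0.5, where 0.25 is the smallest value it can give. Without control library 1 the difference was 0.310 and passed (limma adjusted p = 0.0293), while leaving out any other single library gave differences from 0.0574 to 0.262 that did not pass. Control library 1 held the highest control level of this position, in the only pair that listed it as a loss. The other pairs had already called it a gain, so this pass is largely built in.

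The SD of 0.254 between controls was the largest of the 272 shared regions, ahead of 0.248 for the next one and against a median of 0.0221. The SD between overexpressing libraries, 0.185, ranked 4 of 272, against a median of 0.0344. The HOXA5 region was 1 of 6 shared regions whose pairs went in opposite directions. Of the other 271 shared regions, the overexpressing library was the higher one at 267 in pair 1, 266 in pair 2 and 268 in pair 3. The medians over those 271 regions were 0.452, 0.461 and 0.465 in overexpressing libraries 1, 2 and 3, and 0.151, 0.144 and 0.154 in control libraries 1, 2 and 3.

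**Figure D2:**
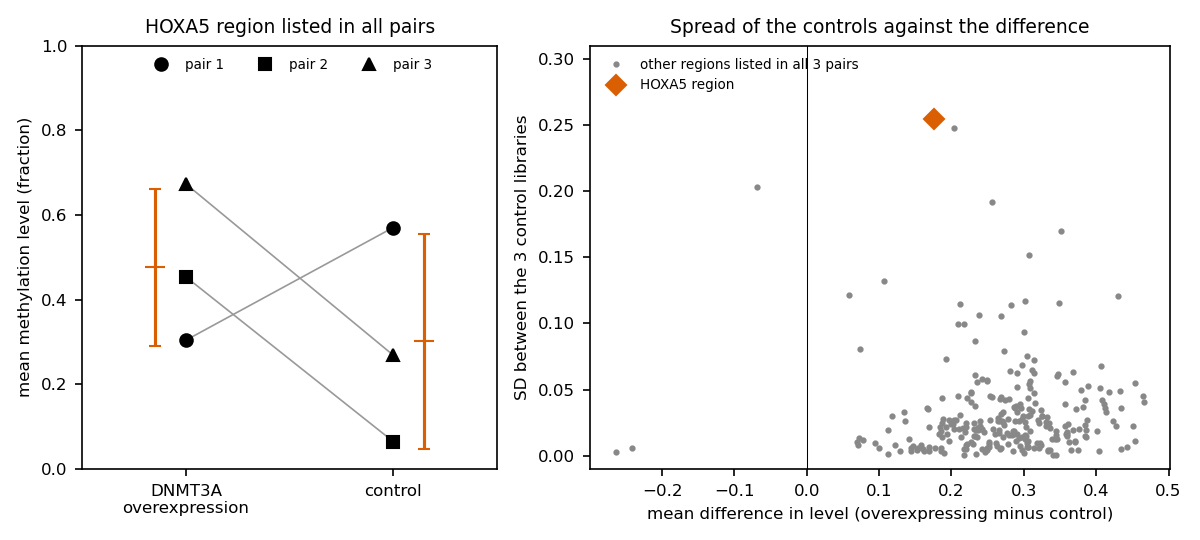
Left, the mean methylation level of the HOXA5 region listed in all pairs, in each overexpressing and control library (symbols by pair, lines joining a pair, orange bars for mean and SD of 3 libraries). Right, for each of the 272 regions listed in all 3 pairs, the mean difference in level on the horizontal and the SD between the 3 control libraries on the vertical axis, where the HOXA5 region (orange) stands at 0.176 and 0.254, above all others on the vertical axis.

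The 3 HOXA5 regions do not cover the same cytosines. Those of pairs 1 and 3 end at the same base and share 135 bp, while those of pairs 2 and 3 start 1 bp apart and share 134 bp. The pair 2 region spans 1034 bp with 7 sites, and 99.7% of the regions of its list were shorter, while the pair 3 region has 11 sites in 135 bp. So at least some of the cytosines counted in pair 3 were not counted in pair 2, and the spread between libraries includes a difference in sites. Its share was not tested. A further gain inside HOXA5 was listed in pair 3 only, at 27143256-27143329 (11 sites), 43 bp beyond the end of the pair 2 region. It stood at 0.535 in the overexpressing and 0.320 in the control library, a difference of 0.22.

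Between HOXA6 and HOXA7, pair 1 listed a gain at 27148944-27149019 (6 sites), inside HOXA-AS3 and 1170 bp from HOXA6. The level was 0.448 in the overexpressing and 0.0386 in the control library, a difference of 0.41. It was the only gain of pair 1 in the cluster, and had the lowest control level of the 9 regions. In its list 84.7% of regions had a smaller absolute difference, and 7.69% had a lower control level.

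At the most upstream annotated start site of HOXA3, position 27152583, a gain and a loss lay side by side in different pairs. In pair 2 the region 27152549-27152720 (10 sites), which spans the start site from 34 bp downstream to 137 bp upstream, stood at 0.742 in the overexpressing and 0.228 in the control library. This difference of 0.51 was the largest of the cluster, and 95.05% of the regions of its list had a smaller absolute difference. The capital letters in the HOXA3 sequence above mark its CpG dinucleotides. In pair 3 the region 27152333-27152428 (13 sites), with 120 bp between the 2 regions, stood at 0.232 in the overexpressing and 0.381 in the control library. Its difference of -0.15 was the smallest of the cluster in size, and only 10.6% of its list had a smaller absolute difference. Neither region was listed in a second pair, so these opposite directions at neighbouring positions have no replicate check.

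HOXA7 (27153716-27156675), whose expression with HOXA9 is raised in leukaemias with rearranged KMT2A, had a gain over its start site in pair 3. The region 27156661-27156831 (27 sites) runs from 14 bp downstream to 156 bp upstream of the start site at 27156675. It stood at 0.619 in the overexpressing and 0.372 in the control library, a difference of 0.25. At 15.8 sites per 100 bp this was the densest of the 9 regions, and 73.5% of its list was less dense.

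Towards the tail end of the cluster, pair 1 listed a loss at 27192399-27192734 (46 sites), between HOXA11-AS and HOXA13 and 1630 bp from HOXA13, a gene of limb and genital development. The level was 0.249 in the overexpressing and 0.501 in the control library, a difference of -0.25. With 336 bp and 46 sites it had the most sites of the 9 regions, and 97.0% of its list had fewer.

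**Figure D3:**
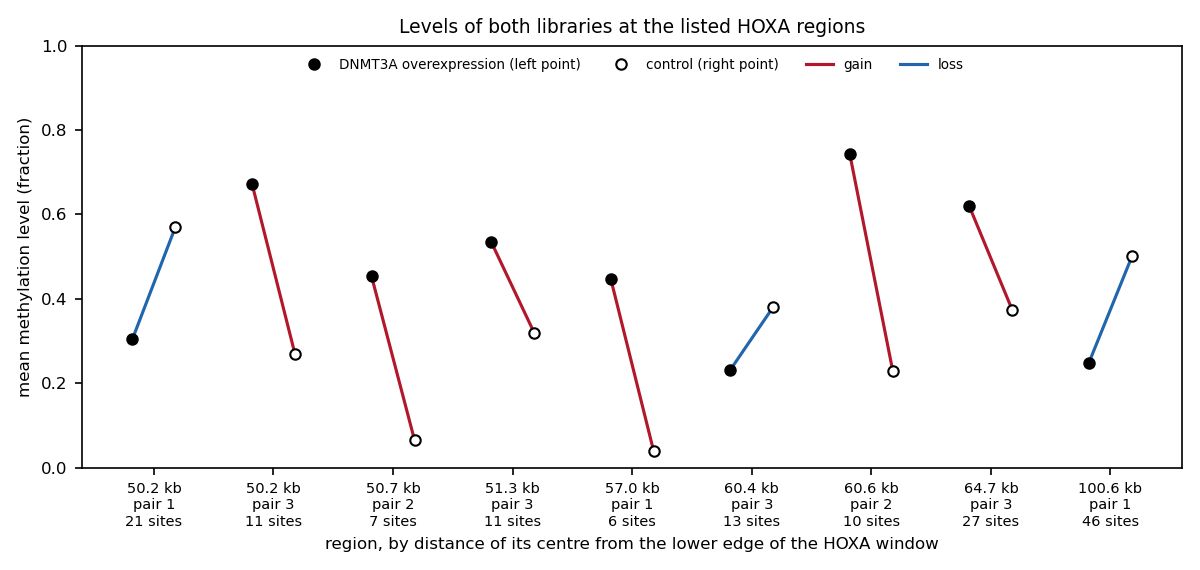
Mean methylation level (fraction, vertical axis) of the overexpressing library (filled, left point) and the control library (open, right point) at each of the 9 regions in order along the cluster, with the distance of the region's centre from the lower edge of the window, the pair and the number of sites below. Red lines are gains and blue lines losses; the controls of the 3 losses lie between 0.381 and 0.570 and those of the 6 gains between 0.0386 and 0.372.

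Gains and losses of the cluster differed in control level, as did those of the whole lists. The 6 gains had overexpressing levels from 0.448 to 0.742 (median 0.577) and control levels from 0.0386 to 0.372 (median 0.248). The 3 losses had overexpressing levels from 0.232 to 0.304 and control levels from 0.381 to 0.570. No overexpressing level of a loss reached that of a gain, and no control level of a gain reached that of a loss. The margin was narrow, with 0.372 as the highest control level of a gain and 0.381 as the lowest of a loss. Levels chosen by a call depend on the same reads as its direction, so this is a description. Over the whole lists the median control level was 0.195 at gains and 0.583 at losses. The median overexpressing level was 0.512 at all listed gains and 0.247 at all listed losses. The median difference was 0.40 at the 6 gains, against 0.27 at all 3546 listed gains, and -0.25 at the 3 losses, against -0.27 at all 798 listed losses. The gains held 6 to 27 sites (median 10.5, all listed gains 12) and the losses 13 to 46 (median 21, all listed losses 12).

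Whether the balance of gains and losses in the cluster differed from the rest of the lists was compared over pairs. Gains were 33.3% of HOXA regions in pair 1, 100% in pair 2 and 75% in pair 3, against 82.2%, 81.7% and 81.1% of all other regions. The mean difference in share was -12.2 percentage points ± 34.0 (SD, n = 3 pairs), negative in 2 of 3 pairs. An exact two-sided sign-flip test gave p = 0.75. With 3 pairs this test cannot go below 0.25, and each share rests on 2 to 4 regions, so it cannot decide whether the balance differed. Without pair 1 the mean difference was 6.10 percentage points. With regions of an absolute difference of at least 0.3 it was 21.1 percentage points, and all 4 remaining HOXA regions were gains. The HOXA losses were all below 0.3 in size, so that filter removed them by its own construction.

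Just outside the window, the nearest regions were a gain in pair 1 at 27205215-27205400 (29 sites), 4215 bp beyond its upper edge, and a loss in pair 2 at 27225836-27225904 (9 sites), 24836 bp beyond it. The gain lies in HOTTIP, the long noncoding RNA gene beside HOXA13 that is known to act on the tail-end HOXA genes, and stood at 0.4997 in the overexpressing and 0.284 in the control library. The loss stood at 0.292 in the overexpressing and 0.637 in the control library. Below the window the nearest region of any pair lay 748260 bp away.

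The other HOX clusters, taken from the first to the last of their HOX genes, had 1 listed region each. HOXA had 9, which merged into 7 distinct regions. A gain in HOXB6 and HOXB-AS3 in pair 2 (chromosome 17: 48602096-48602173, 4 sites) stood at 0.631 in the overexpressing and 0.174 in the control library. A gain in HOXC-AS2 in pair 3 (chromosome 12: 53995523-53995580, 5 sites) stood at 0.386 in the overexpressing and 0.223 in the control library. A gain in HOXD3 in pair 1 (chromosome 2: 176157764-176157830, 7 sites) stood at 0.679 in the overexpressing and 0.542 in the control library. How much of each cluster the libraries covered is unknown, and HOXA was chosen in view of earlier results of these data. The numbers of regions were therefore not tested against each other.

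Genes that work with HOX proteins or control them were looked up by name. Of 9 genes of the PBX, MEIS and PKNOX cofactors, which bind DNA together with HOX proteins, 3 had a region within 1 kb, against 8.88% of all protein-coding genes, and their regions were all gains, as were those of 73.1% of the 1773 protein-coding genes with a region. Counts this small were not tested against these shares. MEIS2 had a gain with the same boundaries in all 3 pairs (chromosome 15: 37097086-37097279, 26 sites), at 0.518, 0.474 and 0.598 in overexpressing libraries 1, 2 and 3 and 0.101, 0.0933 and 0.154 in control libraries 1, 2 and 3 (limma adjusted p = 2.7e-05). The groups did not overlap there, unlike at HOXA5. However, each pair had already called this region a gain, so a low p and separate groups are largely built into its choice. Of the 272 regions listed in all 3 pairs, 96.7% passed the same test. PKNOX2 had gains at different positions in pairs 1 and 3, and PBX3 had 1 gain in pair 3. Of 15 Polycomb genes 4 had a region, set against the same 8.88%, 3 of them with a gain and 1 with a loss. JARID2 had a gain with the same boundaries in all 3 pairs, while EZH2 had a gain in pair 3 only. CBX8 had a loss in pair 1, at 0.395 in the overexpressing and 0.671 in the control library. Of 13 activators and upstream inputs, such as KMT2A, the CDX factors and the retinoic acid receptors, 1 had a region, set against the same 8.88%. It was RARA, with a gain in pair 2 at 0.0594 in the overexpressing and 0.0215 in the control library.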

How the data were processed

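RRBS libraries of HepG2 cells, 3 per group, were analysed from 3 deposited region lists and a mapping summary; groups and replicate numbers were taken from the labels. Per the labels' protocols, DNA was cut with MspI, ligated to methylated adapters and treated with bisulfite. Per the submitters' processing notes the genome was hg38. The aligner, the region caller and its cut-offs were not given in the sources used here. Per the file headers, the authors gave mean methylation levels as a fraction, the count of CpG sites, the length, and 2 scores, the difference and an area. Total and mapped read counts and their percent values were deposited per library.

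Within RefSeq promoter windows, 184 of 184 region starts and 179 of 179 ends fell on the C or G of a CpG, so coordinates count from 1. Overlaps of at least 1 bp were merged into 7 distinct HOXA regions. Levels at the 272 regions listed in all pairs were logit-transformed (offset 0.01) and tested with limma 3.58.1 (R 4.3.3), without a replicate block, with Benjamini-Hochberg adjustment over all 272, after a test on simulated data. The authors compared equal numbers, so equal numbers were treated as pairs in the differences, the counts and the sign-flip tests. The main limma fit and the permutation test did not use the pairs. Deviations from group means correlated within pairs (0.393, 0.295 and 0.313). Both levels of a pair were taken over the same called boundaries, which can differ between pairs. The correlations are therefore no separate check of the pairing. All HOXA regions are reported; those in several pairs and the largest gain and loss of each pair in full. The members and gene lists were chosen with earlier results of these data known. Some genes are not reported here.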

Additional observations from a re-analysis of the deposited data

How the results depend on the processing

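The 6 gains of the cluster ranged from 4 to 7 and the 3 losses from 0 to 3 over the alternatives tried, 1 of which, the stretch from HOXA5 to the HOXA7 promoter (6 gains, 2 losses), was chosen after seeing the data. Requiring an absolute difference of at least 0.3 left 0 losses and 3 distinct regions, by its own construction, and turned the share of gains against the rest to 21.1 percentage points, from -12.2. Leaving out a pair gave 4 to 6 distinct regions and a share difference of -27.5 to 6.10 percentage points, positive without pair 1. Under all 9 alternatives tried for it, 1 position was listed in 2 or more pairs. The difference in level at the HOXA5 region ranged from 0.0574 to 0.310 when a library was left out, with limma adjusted p from 0.0293 (without control library 1, the only alternative of 11 in which it passed) to 0.642. With the replicate number as a block, its adjusted p was 0.220 at the same difference of 0.176, and the block changed no call in the cluster; over all 272 regions it gave 266 calls against 263. The other settings gave adjusted p from 0.195 to 0.264, and 242 to 264 calls. Where a group lost a library, the spread was pooled over regions. The pass without control library 1 left out the highest control level of the HOXA5 region, so it is largely built in. Depth per region is unknown, so no coverage minimum could be tried.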
